A study of Rattus norvegicus with 17 samples.

Results

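Pnoc encodes prepronociceptin, the precursor of the opioid-like peptide nociceptin, and Oprl1 encodes the receptor for that peptide. Both genes were listed among the 17251 genes measured in the rat meibomian gland (MG), and these 2 genes are described here together with the genes whose level followed that of Pnoc from rat to rat. Pnoc was chosen because of its pattern in these same rats, namely its spread between control animals and its lower level after UVB, so its levels and differences are given as a description without a test. The 20 genes with the highest and the 10 genes with the lowest Pearson correlation with Pnoc were then taken from the control rats, by the values given further on.

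Total RNA from the MG of 17 female Sprague-Dawley rats aged 10 to 12 weeks was sequenced, with 1 library per rat. Wild-type (WT) rats were compared with P1.hMR rats, which carry the human mineralocorticoid receptor gene NR3C2 as a transgene driven by its own proximal P1 promoter. The 4 Control WT and 5 Control P1.hMR rats were not irradiated, and the 3 UVB WT and 5 UVB P1.hMR rats received UVB light on the eyelids over 5 days, which models the gland damage of ocular rosacea. Expression was given as TPM, a share of each sample's transcripts that is corrected for transcript length. The files hold no read counts, so the number of reads behind each TPM value is unknown and precision rests on the spread between rats, and because whole glands were used, fewer cells of a type and less RNA per cell cannot be told apart.

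Nociceptin binds a receptor that couples to inhibitory G proteins, lowers cyclic AMP, opens potassium channels and closes calcium channels. Unlike the other opioid receptors, this receptor is not blocked by naloxone. The peptide is cut from its precursor by prohormone convertases, trimmed by carboxypeptidases and later broken down by membrane peptidases. It is best known from neurons of the pain pathways, and its precursor is also made outside the nervous system, including by cells of the immune system.

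The dissected tissue carried marker genes of meibocytes. All 13 meibocyte marker genes passed the filter of at least 1 TPM in at least 3 rats, and their summed level lay between 39401 and 55853 TPM per rat. Skeletal muscle markers were present beside them, with a summed level between 2146 and 4972 TPM. So were markers of mucosal and goblet epithelium (3960 to 6910 TPM), the inner root sheath (274 to 1164 TPM) and the hair shaft (176 to 801 TPM). NR3C2 was listed at 0 TPM in every WT rat and between 5.31 and 9.31 TPM in every P1.hMR rat.

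Pnoc stood at 5.24, 15.7, 54.68 and 83.17 TPM across the 4 Control WT animals, and at 34.95, 76.39, 42.38, 42.47 and 54.93 TPM across the 5 Control P1.hMR animals. Pnoc was at 19.49, 3.48 and 8.69 TPM in the 3 UVB WT rats and at 3.5, 4.39, 3.71, 12.54 and 4.53 TPM in the 5 UVB P1.hMR rats. Control WT rats 1 and 2 lay within the range of the irradiated rats, and the other 7 of the 9 control rats lay above every irradiated rat. Within P1.hMR rats the control and UVB values did not overlap, whereas within WT rats they did.

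The mean level of Pnoc was 39.7 ± 36.0 TPM (SD, n = 4) in Control WT, 50.2 ± 16.3 TPM (SD, n = 5) in Control P1.hMR, 10.6 ± 8.17 TPM (SD, n = 3) in UVB WT and 5.73 ± 3.83 TPM (SD, n = 5) in UVB P1.hMR rats. The order of the 4 means was therefore Control P1.hMR, Control WT, UVB WT and UVB P1.hMR. The first and second of these means, and likewise the third and the last, differed by less than the larger SD of the pair. On the log2(TPM + 1) scale, UVB minus control was -1.46 for WT and -3.01 for P1.hMR, and P1.hMR minus WT was 0.90 without and -0.65 with UVB.

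Some of these differences depended on single rats. The UVB difference in WT rats ran from -2.15 without Control WT 1 to -0.90 without Control WT 4, and it was -0.91 without UVB WT 2. The genotype difference without UVB fell to 0.21 without Control WT 1 and reached 1.46 without Control WT 4. The genotype difference under UVB shrank to -0.11 without UVB WT 1 and widened to -1.20 without UVB WT 2. In contrast, the UVB difference in P1.hMR rats stayed between -3.30 and -2.85 whichever of the 10 rats was left out. The UVB difference in P1.hMR minus that in WT rats was -1.55, and ran from -2.11 to -0.86 with 1 rat left out.

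**Figure D1:**
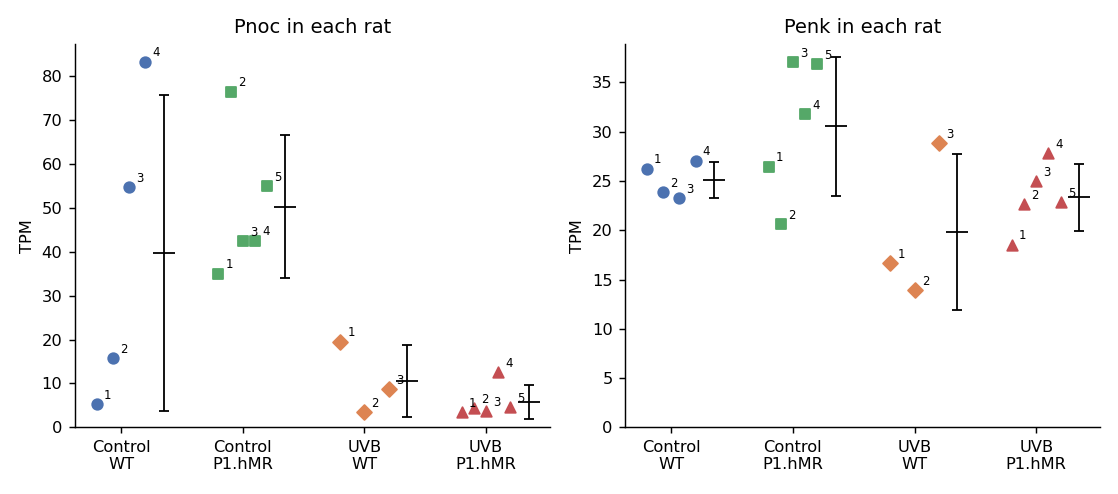
Level of Pnoc (left) and of Penk, the proenkephalin gene (right), in TPM on linear axes that start at 0, with 1 point per rat labelled by its replicate number and the mean ± SD of each group in black. Pnoc spans 5.24 to 83.17 TPM in Control WT rats and 3.5 to 12.54 TPM in UVB P1.hMR rats, while Penk stays between 13.92 and 37.08 TPM in all rats.

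Few genes varied as much between unirradiated animals. The SD of Pnoc over the 9 control rats was 1.19 on the log2(TPM + 1) scale, against a median of 0.12 over the 13105 genes tested, and 32 of these genes (0.244%) had a larger one. The highest Control WT rat carried 15.9 times the Pnoc level of the lowest, compared with 2.19 times in Control P1.hMR rats. After UVB the SD over 8 rats was 0.84, and 84 genes had a larger one. Ranked by mean TPM among all listed genes, Pnoc was at place 2995 in control rats with 45.5 TPM and at place 8888 in UVB rats with 7.54 TPM.

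Of the other opioid precursors, Penk, which encodes proenkephalin, was the most abundant. Penk lay at 26.24, 23.85, 23.28 and 27.06 TPM in Control WT and at 26.44, 20.63, 37.08, 31.8 and 36.85 TPM in Control P1.hMR rats. It lay at 16.65, 13.92 and 28.82 TPM in UVB WT and at 18.55, 22.67, 24.96, 27.82 and 22.84 TPM in UVB P1.hMR rats. The ranges of Penk overlapped between UVB and control in both genotypes, and the log2 differences of -0.39 for WT (SE 0.21, adjusted p = 0.200) and -0.35 for P1.hMR (SE 0.17, adjusted p = 0.121, limma) did not pass the test.

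Within a rat, Pnoc was above Penk in 7 of 9 control and in 1 of 8 UVB rats, UVB WT 1. The correlation of Penk with Pnoc was 0.07 over control and 0.16 over UVB rats, and it was -0.44 over the 7 control rats other than Control WT 1 and 2. Pomc, the precursor of beta-endorphin and of the melanocortins, stayed between 0.8 and 2.48 TPM in all rats and did not pass the test after UVB in either genotype. Pdyn, the dynorphin precursor, was listed at 0 in 15 rats and at most at 0.17 TPM.

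The receptor of nociceptin was close to the lower end of the scale. Oprl1 was at 0.03, 0, 0.02 and 0 TPM in Control WT, at 0.02 TPM in Control P1.hMR 4 and at 0 in the other Control P1.hMR rats. It was at 0.05 TPM in UVB WT 1, at 0.05 and 0.02 TPM in UVB P1.hMR 1 and 2, and at 0 in the remaining UVB rats. Thus 11 of 17 rats were listed at 0 and no group stood out. No fold change is given at such levels, and the two-sided exact permutation test on log2(TPM + 1) gave p = 1.0 and p = 0.722 for UVB within WT and within P1.hMR, and p = 0.405 and p = 1.0 for genotype without and with UVB.

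The classical opioid receptors were also low in the whole gland. Oprd1, the delta receptor, reached 0.18 TPM and Oprk1, the kappa receptor, reached 0.06 TPM, with 7 and 10 rats listed at 0. Oprm1, the mu receptor, was not analysed here.

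The remaining pathway was described with 6 lists, opioid precursors, opioid receptors, prohormone processing, peptide degradation, receptor signalling and other neuropeptides. Without Pnoc they held 78 genes, of which 72 were listed and 40 passed the filter. A gene was called when limma gave an adjusted p under 0.05 together with a log2 fold change of 0.5 or more in size. After UVB, 3 of the 40 were higher and 4 lower in WT rats (17.5%), against 7.91% of all 13105 genes tested. For P1.hMR, 3 rose and 4 fell (17.5%), against 10.8% of all genes. The 40 genes had a median log2 fold change of -0.04 for WT and -0.06 for P1.hMR, against 0.01 and -0.02 over all genes.

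By genotype, none of the 40 was called without UVB, where limma called 0.00763% of all genes, nor with UVB, where it called 0.0229%. The highest genotype log2 fold change over all genes was that of the transgene NR3C2, at 3.19 without and 2.89 with UVB. Of the 8 prohormone processing genes tested, 1 was called higher and 2 lower in WT, and 1 higher and 1 lower in P1.hMR rats. Pcsk5, a proprotein convertase of the furin family, rose from a highest control value of 1.34 TPM to between 2.08 and 4.56 TPM in all UVB rats. Its log2 fold change was 1.07 for WT (SE 0.16, adjusted p = 0.000411) and 0.98 for P1.hMR (SE 0.13, adjusted p = 4.05e-05).

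Cpe, the carboxypeptidase that trims most neuropeptides after cleavage, fell. It stood at 162.39, 155.95, 121.32 and 132.41 TPM in Control WT and at 81.83, 61.43 and 87.22 TPM in UVB WT rats, with no overlap. The log2 fold change was -0.89 for WT (SE 0.18, adjusted p = 0.00302) and -0.52 for P1.hMR (SE 0.15, adjusted p = 0.0121). In P1.hMR rats its ranges overlapped, from 88.93 to 135.9 TPM in controls and from 59.43 to 98.67 TPM after UVB. There the fold change of Cpe came under the threshold without Control P1.hMR 1 (-0.45) or 4 (-0.49), without UVB P1.hMR 3 (-0.42) or 4 (-0.45), and with median-of-ratios scaling (-0.50). Pcsk6, a related convertase, was called lower in WT rats (log2 fold change -0.52, adjusted p = 0.00843) and missed the fold change threshold for P1.hMR (-0.49, adjusted p = 0.00159). The WT call of Pcsk6 was lost without Control WT 3 (-0.50) or 4 (-0.47), without UVB WT 2 (-0.37), and in a fit of only the groups compared (adjusted p = 0.0543). The neuroendocrine convertase genes Pcsk1 and Pcsk2 did not pass the filter.

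Among genes that break down peptides, Mme, the neutral endopeptidase neprilysin, was the 1 called of 8 tested. Mme had a log2 fold change of 0.54 for WT (adjusted p = 0.0329) and of 0.70 for P1.hMR (adjusted p = 0.00106). UVB WT 2, at 2.72 TPM, lay within the control range of 1.94 to 3.37 TPM and the other 7 UVB rats lay above it. The WT call of Mme was lost without Control WT 1 (0.44) or 4 (0.55), without UVB WT 1 (0.36) or 3 (0.46), without both Control WT 1 and 2 (0.47), and in a fit of only the groups compared (adjusted p = 0.141). In the signalling list of 18 tested genes, Grk5, a kinase that phosphorylates G protein-coupled receptors, rose in WT rats (0.57, adjusted p = 0.00989) and in P1.hMR (0.61, adjusted p = 0.000739). Gnao1, the G protein subunit abundant in neurons, was called lower for P1.hMR (-0.52, adjusted p = 0.000563) and was at -0.31 in WT rats (adjusted p = 0.0734). The WT call of Grk5 was lost without UVB WT 1 (0.46), and the call of Gnao1 without Control P1.hMR 5 (-0.48) or UVB P1.hMR 5 (-0.47) and with quantile normalization (-0.48).

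The neuropeptide list had 4 genes tested, of which Npy and Cck fell in both genotypes. Npy, which encodes neuropeptide Y, lay at 12.49, 16.71, 16.25 and 19.53 TPM in Control WT and at 6.31, 7.07 and 11.29 TPM in UVB WT rats (log2 fold change -0.92, SE 0.21, adjusted p = 0.00614). In P1.hMR rats Npy went from between 16.9 and 23.16 TPM to between 7.74 and 15.69 TPM (log2 fold change -0.84, adjusted p = 0.00138). Cck, the cholecystokinin precursor, had log2 fold changes of -1.31 for WT (SE 0.26, adjusted p = 0.00273) and -1.56 for P1.hMR (SE 0.22, adjusted p = 5.28e-05). Both precursors were therefore lower after UVB in each genotype without overlap of the rats. Over control rats the correlation with Pnoc was 0.82 for Npy and -0.30 for Cck, so the level of Cck did not follow Pnoc there. For Npy the correlation was 0.55 without Control WT 1 and 2, and 0.11 over UVB rats.

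The genes that followed Pnoc were sought over the 9 control rats among the 1001 genes whose SD of log2(TPM + 1) reached 0.3. Pearson r exceeded 0.8 for 24 of them and was under -0.8 for 32. The 20 highest were Mmp3, Ly86, Reps2, Rtn1, Cftr, Tm4sf19, LOC691196, Ighm, Il18r1, Sla, Fmr1nb, Iapp, Cd53, Cd207, AC128960.1, Aqp9, Kcnh3, Selplg, LOC100910708 and Was. Their r ran from 0.92 for Mmp3 to 0.82 for Was, and the first genes left outside were Clca5 at 0.82, Igflr1 at 0.82 and Aif1 at 0.81. These values chose the genes and support nothing by themselves.

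The 20 genes have varied known roles. Ly86 is the partner of a Toll-like receptor homologue on B cells and myeloid cells, Cd53 and Selplg are leukocyte surface proteins, Was organises actin in blood cells, Sla is an adaptor of lymphocyte receptors, Ighm is the IgM heavy chain and Il18r1 a subunit of the interleukin-18 receptor. Cd207 encodes langerin, which marks Langerhans cells. Other members are Mmp3, a matrix metalloproteinase, Cftr, the epithelial chloride channel, Aqp9, a water and glycerol channel, Kcnh3, a voltage-gated potassium channel, Rtn1, a reticulon of neurons and neuroendocrine cells, and Iapp, the precursor of the islet hormone amylin.

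Cftr was at 0.13, 0.44, 0.85 and 1.63 TPM in Control WT rats 1 to 4, and at 0.65, 1.58, 0.48, 0.76 and 1.26 TPM in Control P1.hMR rats 1 to 5. Cftr was thus lowest in the 2 WT rats with the least Pnoc and highest in the rats with the most, with r = 0.89 over the 9 rats. It reached 1 TPM only in Control WT 4 and Control P1.hMR 2 and 5, the rats with the most Pnoc. Cftr therefore passed the filter of 1 TPM in 3 rats only because it was high there, so its r supports nothing by itself. Cd207 was at 13.12, 16.58, 21.11 and 27.07 TPM in Control WT and at 17.85, 31.83, 17.92, 23.37 and 19.58 TPM in Control P1.hMR rats, with r = 0.86.

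The 10 genes at the other end included Igfbp4, RGD1565166, Phlda2, Nr3c2, LOC100365958, AC107446.1, Nrg2, Acox3 and Fastkd1, and their r lay between -0.94 and -0.87. Igfbp4 binds insulin-like growth factors, Nrg2 is a neuregulin and Acox3 a peroxisomal acyl-CoA oxidase. Nr3c2 is the rat's own mineralocorticoid receptor gene. It stood at 25.9 and 17.2 TPM in Control WT 1 and 2, the rats with the least Pnoc, and between 9.27 and 11.79 TPM in the other 7 control rats. Reads of the human transgene and of Nr3c2 may have been split in the quantification of P1.hMR rats, so these values are uncertain there.

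Many of these relations rested on Control WT 1 and 2, the 2 rats farthest from the median of Pnoc. Without them, 13 of the 20 genes still had an r of at least 0.5, against 17.6% of the genes from which they were chosen. The remaining 7 rats were among the 9 that chose the genes, so this count supports nothing by itself. The median r of the 20 genes went from 0.87 to 0.57 and that of the 10 genes from -0.91 to -0.55. For Mmp3 r went from 0.92 to 0.36, for Kcnh3 from 0.84 to -0.04 and for Nr3c2 from -0.92 to -0.03. In contrast, r over the 7 rats was 0.91 for Cftr, 0.82 for Cd207, 0.80 for Cd53, 0.80 for AC128960.1 and -0.86 for RGD1565166. Of these, Cftr had passed the filter only through the rats with the most Pnoc. A new choice of 20 genes over these 7 rats shared 1 gene with the original 20, and a new choice of 10 shared 1 gene. Likewise, without the limit on the SD, when less variable genes could enter, 1 of the 20 and 0 of the 10 were chosen again.

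**Figure D2:**
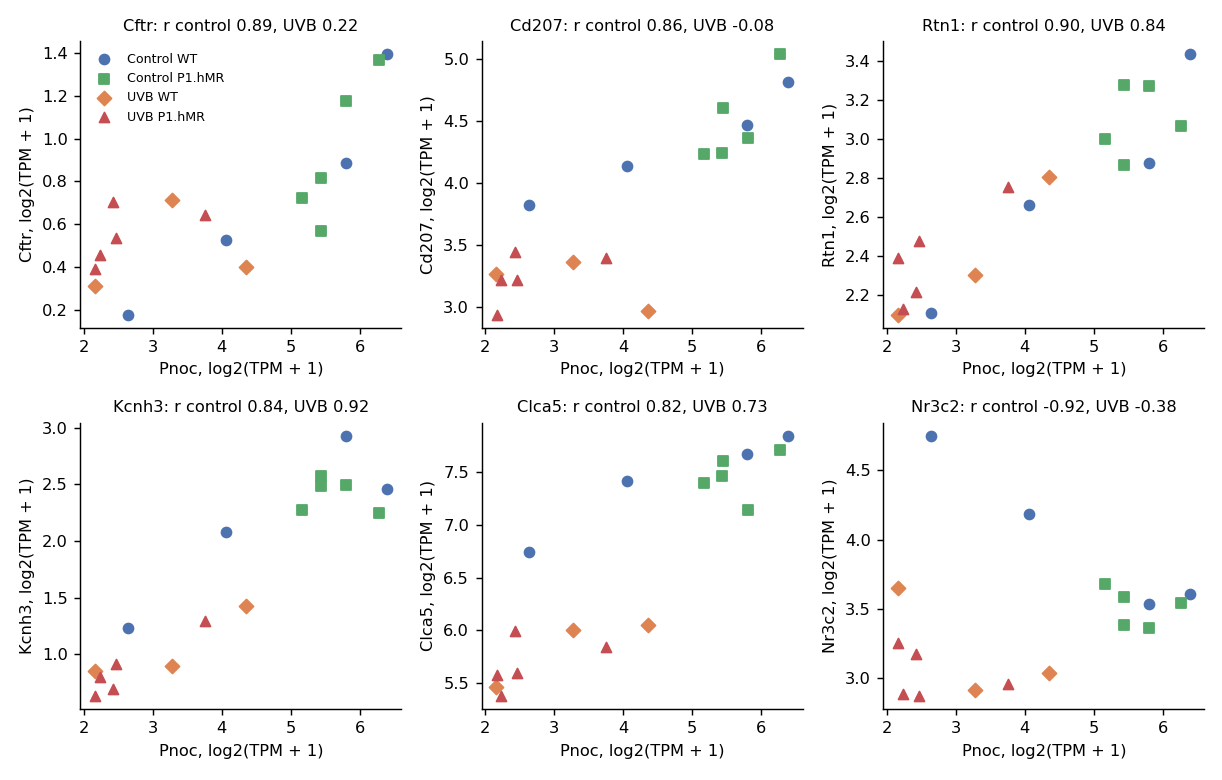
Level of 6 genes against Pnoc in all 17 rats, both as log2(TPM + 1), with 1 point per rat and the Pearson r over the 9 control and the 8 UVB rats above each panel. In the Nr3c2 panel, 2 Control WT rats lie apart at the upper left, and r is -0.92 over control and -0.38 over UVB rats.

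The 8 UVB rats were not used in choosing the genes, so the relation could be tested there. Of the 20 genes, 15 had a positive r with Pnoc after UVB (75.0%), against 61.5% of all genes tested, and the median r was 0.29, against 0.15 over all genes. An r of at least 0.5 was reached by 4 of the 20 genes, against 22.7% of all genes. Of the 10 genes with the lowest r, 8 were again negative, with a median r of -0.39. Among the 1001 genes from which the 20 were chosen, 52.5% were positive after UVB, the median r was 0.03 and 13.2% reached 0.5. With this r, the share of the 20 genes at 0.5 or more thus lay between these backgrounds. With each rat taken relative to the mean of its genotype, 8 of the 20 genes reached 0.5, against 20.6% of the 1001 genes and 26.6% of all genes. Their median r was then 0.37, against 0.09 and 0.14, and that of the 10 lowest genes was -0.52. When UVB WT 1 and UVB P1.hMR 4 were left out instead, 4 of the 20 reached 0.5, against 17.4% and 16.1%. Whether the 20 genes differed from these backgrounds was not tested.

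Kcnh3 had the highest value of the 20 after UVB, with r = 0.92 (exact permutation test over 40320 orders, two-sided, p = 0.00218, adjusted p = 0.328 over all genes) and rho = 0.81 (exact p = 0.0218). Rtn1 followed with r = 0.84 (exact p = 0.0122, adjusted p = 0.360) and rho = 0.81 (exact p = 0.0218). Neither passed the adjustment, nor did any of the 20 genes, of which 2 had an unadjusted exact p under 0.05. Over all genes tested 11.1% had such a p, and the lowest adjusted p was 0.217. The lowest exact p of any gene was 2.48e-05, the smallest that 40320 orders can give. At that p 1 gene alone could not pass the adjustment over 13104 genes, so these adjusted values say little about the 20 genes. Without UVB WT 1 and UVB P1.hMR 4, the irradiated rats farthest from the median of Pnoc, r was 0.49 for Kcnh3 and 0.25 for Rtn1, so both relations rested on those rats.

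Kcnh3 was at 1.69 TPM in UVB WT 1 and at 1.45 TPM in UVB P1.hMR 4, the irradiated rats with the most Pnoc, and between 0.55 and 0.88 TPM in the other 6. Cd207 gave r = -0.08 after UVB (exact p = 0.872, adjusted p = 0.973), with values between 6.66 and 9.86 TPM. Its r was thus near 0 there, and it was 0.50 without UVB WT 1 and UVB P1.hMR 4. At the negative end, RGD1565166 had r = -0.74 (exact p = 0.0249, adjusted p = 0.388), and Acox3 had r = -0.73 (exact p = 0.0429, adjusted p = 0.431).

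**Figure D3:**
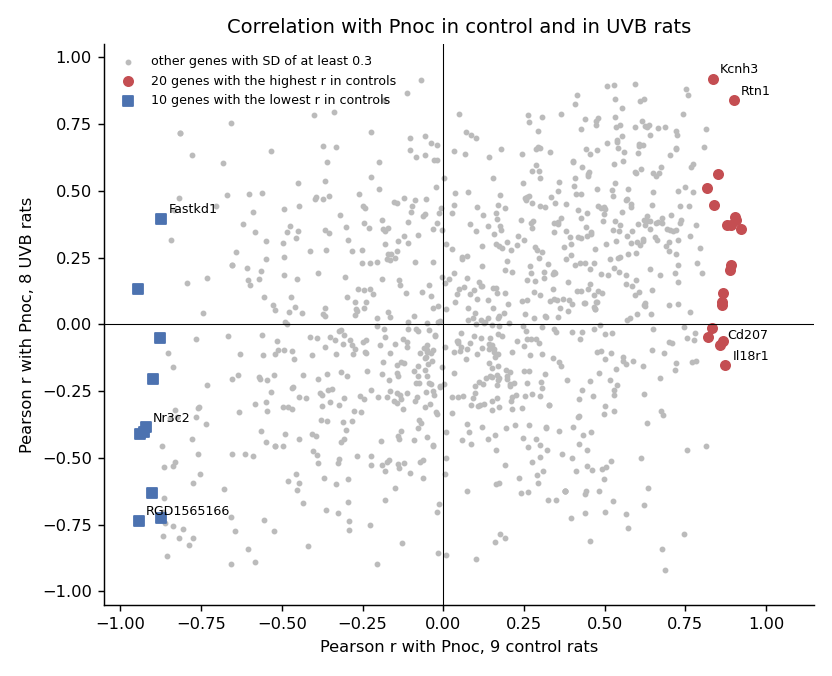
Pearson r with Pnoc over the 9 control rats (x axis) and over the 8 UVB rats (y axis), with 1 point per gene among those with an SD of at least 0.3 in control rats, in which the 20 highest genes are red circles and the 10 lowest blue squares. The 20 genes spread from -0.15 (Il18r1) to 0.92 (Kcnh3) on the y axis.

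The UVB response of the 20 genes differed between members. In WT rats, 2 were called lower, 2 higher and 16 were not called, beside 3.98% lower and 3.92% higher of all genes. In P1.hMR rats, 8 were called lower, 2 higher and 10 were not called, beside 5.71% lower and 5.05% higher. Their log2 fold changes had a median of -0.22 for WT and -0.39 for P1.hMR, against 0.01 and -0.02 over all genes. With Control WT 1 and 2 left out, the number called lower in WT rats was 9 and the number called higher was 1. These genes were chosen from the control rats that also enter the UVB comparisons.

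Kcnh3 and Cd207 fell in both genotypes. Kcnh3 was between 1.35 and 6.62 TPM in Control WT and between 0.8 and 1.69 TPM in UVB WT rats (log2 fold change -1.12, SE 0.28, adjusted p = 0.0104), and the log2 fold change was -1.55 for P1.hMR (SE 0.23, adjusted p = 9.72e-05). Cd207 had log2 fold changes of -1.11 for WT (SE 0.21, adjusted p = 0.00217) and -1.26 for P1.hMR (SE 0.18, adjusted p = 5.63e-05), and every UVB rat lay below every control rat. Reps2, Rtn1, Tm4sf19, Ighm, Fmr1nb and Aqp9 were the other genes called lower in P1.hMR rats, with log2 fold changes from -1.13 for Aqp9 to -0.55 for Reps2. In a fit of only the groups compared, Kcnh3 was not called in WT rats (adjusted p = 0.0836). The call of Reps2 was lost without Control P1.hMR 2, 4 or 5 or UVB P1.hMR 3 or 5 (-0.52 to -0.46). That of Fmr1nb was lost without Control WT 2, Control P1.hMR 1, 2, 4 or 5, and without UVB P1.hMR 3, 4 or 5 (-0.78 to -0.65), and with no filter on low values (adjusted p = 0.0624).

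Mmp3 and LOC100910708 rose in both genotypes, against the direction of Pnoc. Mmp3 had log2 fold changes of 0.93 for WT (adjusted p = 0.00651) and 0.86 for P1.hMR (adjusted p = 0.00123). LOC100910708 went from between 6.4 and 26.43 TPM in the 9 control rats to between 33.56 and 85.56 TPM in the 8 UVB rats. In WT rats, Mmp3 was not called in a fit of only the groups compared (adjusted p = 0.0787), nor LOC100910708 without Control WT 1 and 2 (adjusted p = 0.0758). Of the 8 genes described above as known from leukocytes or Langerhans cells, Cd207 was called lower in both genotypes and Ighm in P1.hMR rats. Cd53, Selplg and Was had log2 fold changes between 0.20 and 0.46 and Ly86, Sla and Il18r1 between -0.48 and -0.14, and these 6 genes did not pass the test. Of the 10 genes with the lowest r, Nr3c2 was called lower and Nrg2 higher in WT rats, and Igfbp4, LOC100365958 and Nrg2 were called higher in P1.hMR rats. The WT call of Nr3c2 was lost without Control WT 2 (-0.76), UVB WT 1 (-0.74) or UVB WT 3 (-0.67), and its fold change was -0.37 without both Control WT 1 and 2. The WT call of Nrg2 was lost without Control WT 3 (0.59) or 4 (0.47) or UVB WT 1 (0.64) or 2 (0.61), and both were lost in a fit of only the groups compared. That of LOC100365958 was lost without Control P1.hMR 5 (0.49). Between genotypes, none of the 30 genes was called without or with UVB, where limma called 0.00763% and 0.0229% of all genes.

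**Figure D4:**
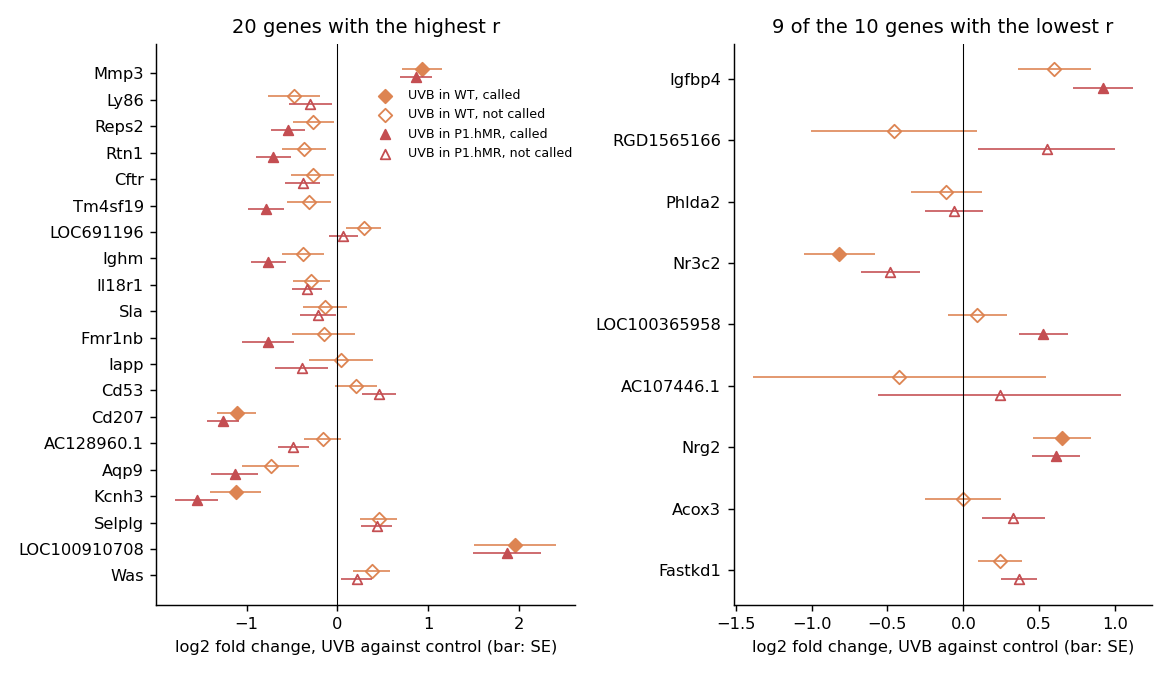
Log2 fold change of UVB against control, with its SE from limma, for the 20 genes with the highest (left) and 9 of the 10 with the lowest r with Pnoc (right) with WT rats as diamonds and P1.hMR rats as triangles, where filled symbols are called. Of the 20 genes, Kcnh3 and Cd207 are called lower and Mmp3 and LOC100910708 higher in both genotypes, and of the 9 genes Nrg2 is called higher in both.

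Markers of other cell types also moved with Pnoc between rats. Over the 9 control rats, the median r of a list was 0.72 for basal epithelium (4 genes tested), 0.68 for mucosal and goblet epithelium (5 genes), 0.64 for dermal fibroblasts (7 genes), 0.62 for secretory gland epithelium (6 genes) and 0.59 for macrophages (5 genes). It was -0.64 for the 13 meibocyte genes and -0.45 for the 4 tested adipocyte genes, against 0.00 over all genes tested. Of the other epithelial and stromal lists with at least 3 genes tested, the median r was 0.35 for endothelium and 0.28 for the hair shaft. It was 0.05 for duct and suprabasal epithelium, 0.05 for the inner root sheath, -0.01 for smooth muscle and pericytes and -0.22 for the dermal papilla.

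The summed meibocyte level was 55853 and 51042 TPM in Control WT 1 and 2, which had the least Pnoc, and between 45692 and 51110 TPM in the other 7 control rats. The dermal fibroblast sum was 1008 TPM in Control WT 1 and between 1317 and 1683 TPM in the other 8. Control WT 1 was therefore at an end of the control rats for both lists. Without Control WT 1 and 2 the median r was 0.05 for dermal fibroblasts, 0.05 for secretory gland, 0.20 for mucosal and goblet epithelium, 0.58 for basal epithelium, 0.47 for macrophages and -0.41 for meibocytes. The part of tissue composition in the Pnoc differences was not tested.

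In the 8 UVB rats, the median r was 0.70 for macrophages, 0.68 for mucosal and goblet epithelium, 0.64 for secretory gland epithelium, 0.59 for dermal fibroblasts, 0.50 for basal epithelium and -0.43 for meibocytes, all with the sign seen in control rats. Without UVB WT 1 and UVB P1.hMR 4, however, these medians were 0.62 for macrophages, 0.04 for mucosal and goblet epithelium, -0.23 for secretory gland epithelium, -0.41 for dermal fibroblasts, 0.32 for basal epithelium and -0.25 for meibocytes, so that 2 lists turned sign. The Schwann cell list had a median r of 0.31 and 0.27 in control and UVB rats, and the T cell list 0.30 and -0.08. The 2 tested B and plasma cell genes had a median r of 0.53 and 0.23. Of the neuron markers 2 of 7 passed the filter, of the B and plasma cell markers 2 of 7 and of the Merkel cell markers 0 of 5, so no defining set of these cell types could be set beside Pnoc.

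Across groups, the macrophage sum overlapped between control and UVB rats, from 39.7 to 74.0 TPM in controls and from 44.8 to 84.0 TPM after UVB. The summed basal epithelium level was between 8008 and 10222 TPM in control and between 8278 and 13293 TPM in UVB rats. No tested gene of the basal epithelium list was called in either UVB comparison, and of the macrophage list 2 were called higher in each. Of the 6 secretory gland genes, 1 was called lower in WT animals and 3 were in P1.hMR animals. The inner root sheath list had 8 of 8 genes called lower in both genotypes and a median log2 fold change of -1.18 for WT and -0.97 for P1.hMR. Of the 8 tested hair shaft genes, 4 were called lower in WT (median -1.02) and 2 in P1.hMR rats (median -0.60). Of the 8 Schwann cell genes 4 were called lower in WT animals and 3 were in P1.hMR animals. Of the 10 dermal papilla genes, 3 were called lower in each genotype and 1 higher in P1.hMR rats. Of the 7 dermal fibroblast genes, 3 were called higher in each genotype, with 1 lower in WT and 2 in P1.hMR rats. Among 5 mast cell genes, 2 were called higher in WT and 4 in P1.hMR rats. Among 4 melanocyte genes, 3 were called lower in WT and 0 in P1.hMR rats. Of all genes tested, 3.98% were called lower and 3.92% higher in WT rats, and 5.71% and 5.05% in P1.hMR rats.

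**Figure D5:**
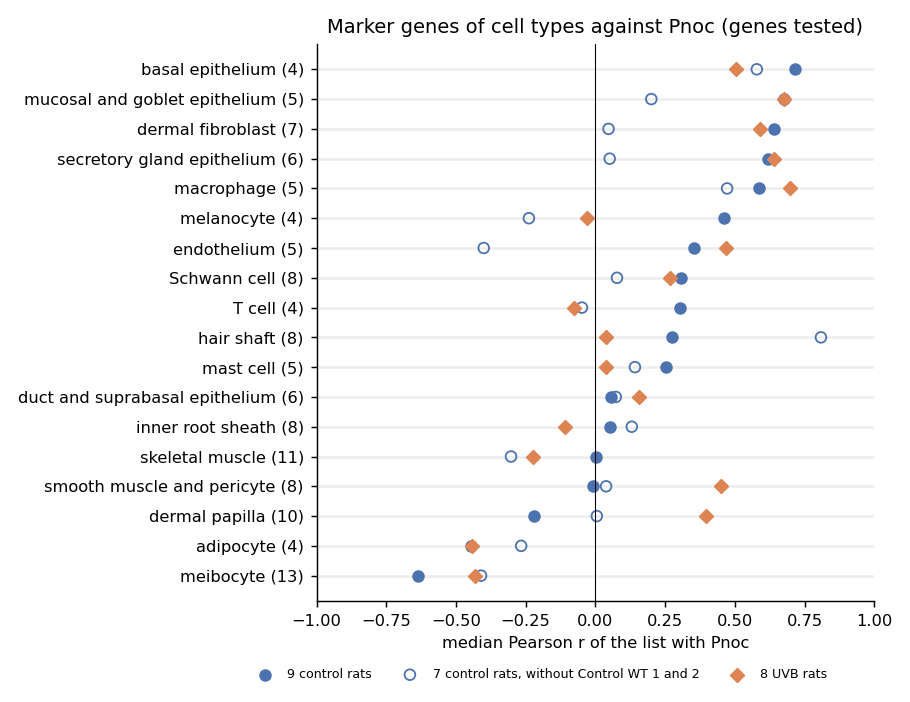
Median Pearson r with Pnoc of the marker genes of 18 cell types with at least 3 genes tested, over the 9 control rats (blue), over 7 of them without Control WT 1 and 2 (open circles) and over the 8 UVB rats (orange), with the number of genes tested beside each name. Basal epithelium stays at or above 0.50 and meibocytes at or below -0.41 in all 3 sets of rats.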

How the data were processed

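Per the labels and the study's methods, the authors extracted total RNA from dissected MGs, sequenced it, aligned reads with STAR to rn7, estimated gene levels with RSEM and deposited TPM for 17251 genes in 17 columns, with 2 decimals. The submitters' processing notes name FastQC, Trimmomatic, DRAGEN and Picard. The deposited TPM hold no counts per gene, so the reads behind single values are unknown and no count model was run. The study's methods give a range of mapped reads for the libraries, which the TPM do not show per rat. Nothing states which rats shared a litter or a preparation.

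The members and gene lists were chosen with earlier results of these data known. The log2(TPM + 1) scale was used, on which changes of low genes come out too small. Genes had to reach 1 TPM in 3 or more rats, and the 13105 that did entered limma 3.58.1 (R 4.3.3), in 1 model of 4 group means with a variance trend. Calls needed an adjusted p (Benjamini-Hochberg) under 0.05 with a log2 fold change of 0.5 or more in size. Oprl1 failed the filter and was tested by a two-sided exact permutation of the absolute difference of means. Pearson r and Spearman rho with Pnoc were computed over 9 control rats, as a description, and over 8 UVB rats, with exact permutation p adjusted over all genes. Correlations and figures used pandas 2.3.3, numpy 2.4.6, scipy 1.17.1 and matplotlib 3.10.9 in Python 3.11.15. The scripts were tested on simulated data.

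Named genes were Pnoc, Oprl1, the other opioid precursors and receptors, the 20 and 10 genes of extreme r, and pathway genes called. Of the 10, 1 gene enters the counts and medians and is not reported here by itself. Clca5, Igflr1 and Aif1 lie just outside. Genes given for the transgene, for the absence of a convertase, for their place beside Pnoc or as moving with no call were named after their values were seen. Alternatives were another pseudocount, scaling and filters, fits of 2 groups, no trend, a replicate block, other fold change thresholds, other measures of correlation and each rat left out. Leaving out Control WT 1 and 2, or the 2 rats farthest from the median of Pnoc, was chosen after seeing the data.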

Additional observations from a re-analysis of the deposited data

Results flagged for a closer look

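In groups of 4 or 5 rats, 8 of 102 sets of values had 1 rat standing apart from the rest by the gap to its nearest neighbour relative to the range, and chance alone gives about 1 in 20. Pnoc in UVB P1.hMR 4, at 12.54 TPM, was such a value, with the other 4 rats between 3.5 and 4.53 TPM. Oprl1 in Control P1.hMR 4, at 0.02 TPM, stood apart because the other 4 rats were at 0. Tm4sf19 was high in Control P1.hMR 4 at 2.81 TPM. Iapp was low in UVB P1.hMR 3 at 0.35 TPM, and Selplg was low in Control P1.hMR 3 at 2.04 TPM. Igfbp4 was high in Control P1.hMR 1 at 165.44 TPM. In UVB P1.hMR 1, RGD1565166 was high at 5.38 TPM and AC107446.1 was high at 8.87 TPM. RGD1565166 also had UVB log2 differences of opposite sign, -0.46 in WT and 0.55 in P1.hMR rats, which differed by 1.01, and the interaction of genotype and UVB did not pass the test for it (adjusted p = 0.825, limma).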

How the results depend on the processing

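No choice of scale or scaling turned the direction of a Pnoc difference, and none of the single rats left out did. Control WT 1 and 2 were not left out together for Pnoc. Control WT 3 and 4, at 54.68 and 83.17 TPM, both lay above the Control P1.hMR mean of 50.2 TPM. The positive genotype difference without UVB thus rested on Control WT 1 and 2. The Oprl1 difference, which never passed its test, changed sign with single rats and ran from -0.0178 to 0.0174 for UVB in WT rats and from -0.0163 to 0.0198 for genotype under UVB.

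The choice of co-varying genes was the least stable result. The number chosen again was 10 of 20 and 3 of 10 with Spearman rho, 11 and 4 on linear TPM, 1 and 1 without the 2 rats farthest from the median of Pnoc, 1 and 0 without a limit on the SD, 1 and 1 in Control P1.hMR rats alone and 2 and 2 in Control WT rats alone. With 1 rat left out it was between 7 and 17 of 20 and between 2 and 9 of 10, and lowest without Control WT 1. In UVB rats, the median r of the 10 lowest genes was -0.19 without the 2 farthest rats. Cell type lists with an absolute median r of at least 0.5 numbered 6 in control and 5 in UVB rats. They were 2 and 3 without the 2 farthest rats, and between 3 and 7 in control rats with 1 rat left out, where Control WT 1 gave 3.

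The pathway genes called higher and lower in WT rats were 6 and 5 with no fold change threshold, 1 and 1 when a log2 fold change of 1 in size was needed, and 1 higher with a mean of at least 5 TPM. In P1.hMR rats they were 8 and 10 with no fold change threshold, 0 and 1 at a log2 fold change of 1, and 1 and 2 with a mean of at least 5 TPM. With 1 rat left out, those higher in WT rats were between 1 and 3, with 1 without UVB WT 1.

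Of the 20 co-varying genes, those called in WT rats were 1 higher and 1 lower in a fit of only the groups compared, 1 higher at a log2 fold change of 1, 1 lower with a mean of at least 5 TPM, and 1 higher and 9 lower without Control WT 1 and 2. With 1 rat left out they were between 2 and 4 higher, with 4 without Control WT 4, and between 2 and 4 lower, with 4 without Control WT 1. In P1.hMR rats they were 1 higher and 3 lower at a log2 fold change of 1, and 4 lower with a mean of at least 5 TPM.

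Over all genes, limma called 1036 for UVB in WT and 1410 in P1.hMR rats. These were 2820 and 5123 with no fold change threshold, 219 and 300 at a log2 fold change of 1, and 690 and 882 with a mean of at least 5 TPM. For genotype, 1 gene was called without UVB, which was the transgene NR3C2, and 3 were called with UVB. With a mean of at least 5 TPM both counts were 0, and that filter left out NR3C2. With UVB it was 1 with a pseudocount of 0.1 and 1 in a fit of only the groups compared, and without UVB it was 2 with Control WT 1 and 2 left out. With 1 rat left out they were between 1 and 6 without UVB and between 1 and 52 with UVB, with 6 without Control WT 4 and 52 without UVB WT 3. The interaction of genotype and UVB had 0 calls in limma, with 907 genes at an unadjusted p under 0.05, and between 0 and 8 with 1 rat left out, with 8 without UVB WT 3. The cause of these changes was not tested.

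Rats of equal replicate number did not deviate together, since r of their deviations ran from -0.19 to 0.24 over 22 pairs and exceeded 0.1 in 4. With the replicate block, limma called 1019 and 1400 genes for UVB in WT and P1.hMR rats, and 1 gene for genotype with UVB. The pathway genes called were 2 higher and 3 lower in WT and 3 higher and 4 lower in P1.hMR rats, and the co-varying genes 2 higher and 2 lower in WT and 2 higher and 7 lower in P1.hMR rats. Among the named genes, the calls lost under the block were those of Mme (0.56, adjusted p = 0.0556) and Pcsk6 (-0.47) in WT and of Fmr1nb (adjusted p = 0.0553) in P1.hMR rats.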

Other observations

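In the gene order of the rat assembly GRCr8, Pnoc lies between Zfp395 and Elp3. Zfp395, a zinc finger gene, was called lower after UVB in WT (log2 fold change -0.53, SE 0.08, adjusted p = 0.00028) and in P1.hMR rats (-0.59, SE 0.06, adjusted p = 5.21e-06, limma). Elp3, the catalytic subunit of elongator, was at -0.08 for WT and -0.24 for P1.hMR and was not called in either. Over control rats, r with Pnoc was 0.40 for Zfp395 and 0.19 for Elp3. Among tested genes up to 4 places away, it was 0.76 for Pbk, 0.76 for Extl3, 0.29 for Scara5 and -0.07 for Fzd3. Of the other near genes, Pbk, a mitotic kinase, was called higher in WT rats (0.64, adjusted p = 0.0320), and Scara5, a ferritin receptor, was called higher in P1.hMR rats (0.55, adjusted p = 0.0116). Zfp395 thus fell by less than Pnoc. Pbk in P1.hMR rats (0.49, adjusted p = 0.0271) and Scara5 in WT rats (0.51, adjusted p = 0.0669) changed in the same direction without a call. In WT rats the call of Zfp395 missed the fold change threshold without Control WT 2 (-0.49). The call of Pbk was lost without Control WT 1 (0.49) or 2 (0.61), without UVB WT 1 (0.38), and in a fit of only the groups compared (adjusted p = 0.128), and that of Scara5 without Control P1.hMR 3 (0.48) or UVB P1.hMR 4 (0.49).

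The hair shaft list was the marker list with the highest median r once Control WT 1 and 2 were left out, at 0.81 over 7 control rats, against 0.28 over all 9 and 0.04 over the 8 UVB rats. Its summed level was 789.73 TPM in Control WT 4 and 801.07 TPM in Control P1.hMR 2, the 2 control rats with the most Pnoc, and between 298.67 and 604.86 TPM in the other 7.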
